A study of Mus musculus with 12 samples.

Results

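The 4 genes of the myocyte enhancer factor 2 family, Mef2a, Mef2b, Mef2c and Mef2d, and the serum response factor gene Srf were followed through fibroblasts driven towards muscle in the presence or absence of the retinoblastoma gene Rb1 and the histone demethylase gene Kdm5a. The 5 genes were chosen by name, and all 5 of the 36229 genes in the deposited table passed the filter on low values. The study sequenced RNA from 12 cultures of C57BL/6 mouse embryonic fibroblasts, 2 per group, that were exposed for 24 h to an adenovirus carrying MyoD and kept for another 72 h without it, in differentiation medium (2% horse serum, insulin at 10 µg/ml). Mixed cultures, in which the labels say that the whole cell population was taken, were double knockout (DKO, labelled as lacking Kdm5a and Rb1), Rb1 knockout (Rb1 KO), Kdm5a knockout (Kdm5a KO) or wild type (WT). Purified myotubes, enriched by size and given 24 h to recover, came from DKO and WT cells only. Libraries of mixed cultures were made after removal of ribosomal RNA and had reads of 40 bases, whereas those of purified myotubes were made after oligo(dT) selection and had reads of 36 bases, so levels were compared only within one kind of library. Every group, WT included, carried the MyoD virus. The labels do not give the ages of the embryos, the alleles, or whether the 2 cultures of a group came from different embryos, so the p-values below measure the spread between these cultures.

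MEF2 proteins and SRF are MADS-box transcription factors. MEF2 proteins bind an A/T-rich element in the promoters of many muscle genes and work together with the MyoD family in differentiating muscle, and class IIa histone deacetylases hold them silent until calcium or MAP kinase signals release them. SRF binds the CArG box, drives contractile and cytoskeletal genes with the actin-sensing myocardin-related factors, and drives immediate early genes with the ternary complex factors of the Elk family.

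A match to the MEF2 element occurs in the promoter of Mef2a and CArG boxes in that of Srf, and these 2 windows are shown. Whether these letters act in these cells was not tested. RefSeq (GRCm38.p6) gives 7 promoter windows for the 5 genes, each running from 250 bases before to 50 after an annotated start, 3 of them for Mef2c. The Mef2a window lies at chr7:67372809-67373108 on the minus strand, and its capitals mark a match to the MEF2 site from -2 to 7, counting the start base as 0. The Srf window lies at chr17:46556113-46556412 on the minus strand, and its capitals mark 2 CArG boxes, from -82 to -73 and from -62 to -53.
Mef2a: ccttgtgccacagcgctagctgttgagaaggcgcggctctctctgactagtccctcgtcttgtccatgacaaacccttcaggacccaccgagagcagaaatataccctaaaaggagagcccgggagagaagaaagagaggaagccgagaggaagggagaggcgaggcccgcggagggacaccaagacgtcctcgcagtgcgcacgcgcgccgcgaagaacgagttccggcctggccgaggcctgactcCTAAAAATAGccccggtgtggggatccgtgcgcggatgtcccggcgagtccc
Srf: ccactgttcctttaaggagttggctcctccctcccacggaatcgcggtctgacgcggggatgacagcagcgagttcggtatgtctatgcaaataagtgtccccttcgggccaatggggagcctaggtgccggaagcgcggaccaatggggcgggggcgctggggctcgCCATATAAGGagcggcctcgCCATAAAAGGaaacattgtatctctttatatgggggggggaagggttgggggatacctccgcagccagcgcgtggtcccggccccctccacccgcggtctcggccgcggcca
Searched on both strands, the MEF2 site was present in 3.19% and the CArG box in 1.63% of 32851 RefSeq promoters of the same length. Neither was found in the windows of Mef2b, Mef2c or Mef2d, which says only that these letters are not there. E-boxes (CANNTG), the element of the MyoD family, were found in the windows of Mef2b and in 2 of the 3 of Mef2c, against 72.3% of all promoters.

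The libraries held 8688604 to 41309134 reads, and the lowest count behind any value of a member was 146 reads, for Mef2b in Rb1 KO replicate 1. Values are normalised read counts, reads divided by a size factor per library. Reads from Rb1 remained in the Rb1 KO cultures, at 4457 and 4448 normalised counts against 5616 and 5650 in WT (log2 change -0.34 ± 0.05), and reads from Kdm5a remained in the Kdm5a KO cultures, at 1088 and 1192 against 1637 and 1871 in WT (log2 change -0.62 ± 0.08). In DKO mixed cultures Rb1 had 5309 and 5662 normalised counts, not below WT beyond the spread (log2 change -0.04 ± 0.05, limma adjusted p = 0.510), while Kdm5a had 1319 and 1369.7 (log2 change -0.38 ± 0.08, limma adjusted p = 0.00146). In purified myotubes Rb1 had 2356 and 2104 in DKO, against 3499.5 and 3218 in WT (log2 change -0.59 ± 0.19, limma adjusted p = 0.0580), and Kdm5a had 787 and 614 in DKO, against 3033 and 2775 in WT (log2 change -2.06 ± 0.21, limma adjusted p = 0.00287). Exons of Rcbtb2 and Lpar6 overlap those of Rb1, and exons of Ccdc77 those of Kdm5a, and the labels do not say which exons the alleles lack. The Rb1 counts of the DKO mixed libraries therefore do not bear out their label, and every direction drawn below for DKO or for groups labelled as lacking Rb1 rests on the labels. The Kdm5a KO and DKO libraries carried Xist and no Ddx3y, and the WT and Rb1 KO libraries carried Ddx3y with Xist at 0 in the mixed and at 1.86 and 2.48 in the purified cultures. Kdm5a KO against WT, DKO against WT and DKO against Rb1 KO therefore also set female against male cells, and genotype and sex cannot be told apart in them. Rb1 KO against WT and DKO against Kdm5a KO were within 1 sex, but levels of these 2 genes differed there. Ddx3y had 1267 and 1080 normalised counts in Rb1 KO, against 3319 and 3308 in WT (log2 change -1.50 ± 0.29, limma adjusted p = 0.000465). Xist had 6933 and 6810 in DKO, against 3110 and 3251 in Kdm5a KO (1.11 ± 0.24, limma adjusted p = 0.00117). All 9 skeletal myotube markers were detected in every library. Their summed level was 162561 and 178691 in DKO, 58290 and 57672 in Rb1 KO, 336974 and 352512 in Kdm5a KO and 386280 and 351440 in WT mixed cultures, and 184973 and 184128 in DKO against 488854 and 485385 in WT purified myotubes.

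Mef2c, the family member most closely tied to differentiating muscle, was the gene that moved most. It had 1252 and 1346 normalised counts in Rb1 KO cultures, against 14872 and 15866 in WT cultures. The Rb1 KO cultures were thus far below WT with no overlap, 11.8-fold lower (log2 change -3.56 ± 0.06, limma adjusted p = 1.00e-13, n = 2 per group), and 1.51% of the 17199 genes tested changed as far downward or further. In DKO cultures Mef2c had 4603 and 4824 normalised counts, above both Rb1 KO libraries and below both WT libraries. It was 3.63-fold higher in DKO than in Rb1 KO (log2 change 1.86 ± 0.06, limma adjusted p = 9.37e-11) and 3.26-fold lower in DKO than in WT (log2 change -1.70 ± 0.06, limma adjusted p = 7.11e-11). Kdm5a KO cultures had 13133 and 13707 normalised counts, just under WT. That fall was small (log2 change -0.20 ± 0.06, limma adjusted p = 0.0227), and it did not pass without WT replicate 2 (limma adjusted p = 0.134), Kdm5a KO replicate 1 (0.147) or Kdm5a KO replicate 2 (0.0540), within a range of 0.0107 to 0.165 over its alternatives. In bulk RNA, fewer cells of a type and less RNA per cell cannot be told apart.

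Mef2c was low in DKO cells among purified myotubes too. It had 1664 and 1178 normalised counts in DKO myotubes, against 14534 and 12781 in WT myotubes. DKO was 9.61-fold lower with no overlap (log2 change -3.28 ± 0.24, limma adjusted p = 0.00147, n = 2 per group), and 2.58% of the 16670 genes tested fell as far. The DKO effect on Mef2c was larger in purified myotubes than in mixed cultures by -1.58 ± 0.21 on the log2 scale (limma adjusted p = 0.000657 for the difference itself). Set against the summed myotube markers of the same library, Mef2c had 8.99 and 6.40 normalised counts per 1000 marker counts in DKO myotubes and 29.7 and 26.3 in WT myotubes. In mixed cultures the same measure was 28.3 and 27.0 in DKO, 21.5 and 23.3 in Rb1 KO, 39.0 and 38.9 in Kdm5a KO and 38.5 and 45.1 in WT. Per marker count Mef2c was thus lower in the groups labelled as lacking Rb1 with no overlap, by a smaller ratio than in its counts. The other members were all higher per 1000 marker counts in Rb1 KO than in WT mixed cultures. These include Mef2b (3.38 and 3.85, against 1.28 and 1.27) and Srf (17.6 and 17.6, against 3.49 and 4.22), whose counts fell. The marker sum was itself 6.36-fold lower in Rb1 KO than in WT. It holds Myog, Ckm and Des, which are also in the list of MEF2 targets below.

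Mef2a, which is made in many tissues and can act alongside Mef2c in muscle, moved opposite to Mef2c in Rb1 KO and in DKO against WT, while both genes were higher in DKO than in Rb1 KO. It had 21029 and 23172 normalised counts in DKO, 14124 and 13743 in Rb1 KO, 7704 and 7433 in Kdm5a KO and 8735 and 8097 in WT mixed cultures. The order was DKO, Rb1 KO, WT and Kdm5a KO, with no overlap between neighbours. Against WT it rose 1.66-fold in Rb1 KO (log2 change 0.73 ± 0.06, limma adjusted p = 1.13e-07) and 2.63-fold in DKO (log2 change 1.39 ± 0.06, limma adjusted p = 4.09e-10), and it was 1.59-fold higher in DKO than in Rb1 KO (log2 change 0.66 ± 0.06, limma adjusted p = 1.04e-06). The Kdm5a KO difference from WT did not pass (log2 change -0.15 ± 0.06, limma adjusted p = 0.0635), although it passed without WT replicate 2 (-0.21, limma adjusted p = 0.0399, with 0.0399 to 0.318 over its alternatives). In purified myotubes Mef2a had 16716 and 19173 normalised counts in DKO, against 3725 and 3064 in WT. The rise there was 5.29-fold (log2 change 2.41 ± 0.21, limma adjusted p = 0.00203) and exceeded that in mixed cultures by 1.01 ± 0.17 on the log2 scale (limma adjusted p = 0.00238). Mef2a shares 302 exonic bases with Lysmd4, whose reads fell in Rb1 KO (log2 change -0.81 ± 0.17, limma adjusted p = 0.000927) and in DKO (log2 change -1.02 ± 0.17, limma adjusted p = 0.000180) against WT, opposite to Mef2a.

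Mef2b, the most divergent member and best known from germinal-centre B cells, was at low counts throughout. It had 272 and 255 normalised counts in DKO, 197 and 222 in Rb1 KO, 477 and 579 in Kdm5a KO and 495 and 446 in WT mixed cultures. Both groups labelled as lacking Rb1 lay below the other groups, and the Kdm5a KO and WT libraries overlapped. Against WT it fell 2.25-fold in Rb1 KO (log2 change -1.16 ± 0.13, limma adjusted p = 4.95e-06) and 1.78-fold in DKO (log2 change -0.83 ± 0.13, limma adjusted p = 0.000119). DKO and Rb1 KO differed by 0.33 ± 0.13 on the log2 scale, which did not pass (limma adjusted p = 0.0576) but passed when only those 2 groups were fitted (0.0481), or without WT replicate 1 (0.0499) or WT replicate 2 (0.0490), within 0.0481 to 0.249 over its alternatives. Purified DKO myotubes had 398 and 745 normalised counts, on either side of the 541 and 544 of WT myotubes. Mef2b shares 62 exonic bases with Borcs8, whose reads also fell in Rb1 KO against WT (log2 change -0.68 ± 0.17, limma adjusted p = 0.00322). Borcs8 fell in DKO against WT too (-0.60 ± 0.17, limma adjusted p = 0.00760) and was lower in DKO than in Kdm5a KO (-0.88 ± 0.17, limma adjusted p = 0.000565), as Mef2b was. In purified myotubes Borcs8 had 252 and 473 normalised counts in DKO, on either side of the 270 and 296 in WT.

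Mef2d, which is also made widely and is spliced to a muscle form late in differentiation, changed little in mixed cultures. Gene counts do not separate its splice forms. Mef2d shares 531 exonic bases with 1700113A16Rik, whose reads are not given here. It had 774 and 768 normalised counts in DKO, 745 and 797 in Rb1 KO, 1158 and 961 in Kdm5a KO and 787 and 891 in WT mixed cultures. The 3 groups other than Kdm5a KO lay between 745 and 891, and Rb1 KO overlapped both DKO and WT. Mef2d rose in Kdm5a KO against WT (log2 change 0.33 ± 0.10, limma adjusted p = 0.0288), but not without WT replicate 1 (0.152) or Kdm5a KO replicate 1 (0.251), within 0.0145 to 0.251 over its alternatives. The differences of Rb1 KO from WT (log2 change -0.12 ± 0.10, limma adjusted p = 0.309) and of DKO from WT (log2 change -0.12 ± 0.10, limma adjusted p = 0.318) did not pass. In purified myotubes Mef2d had 2654 and 7495 normalised counts in DKO, against 2647 and 2626 in WT. The 2 DKO libraries were 1.50 apart on the log2 scale, and 7.37% of genes were at least as far apart in them, against a median distance of 0.503. The difference did not pass (log2 change 0.76 ± 0.50, limma adjusted p = 0.273); it was 0.01 without DKO purified replicate 2 and 1.51 (limma adjusted p = 0.000281) without DKO purified replicate 1, the range over its alternatives being 0.000281 to 0.910.

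**Figure D1:**
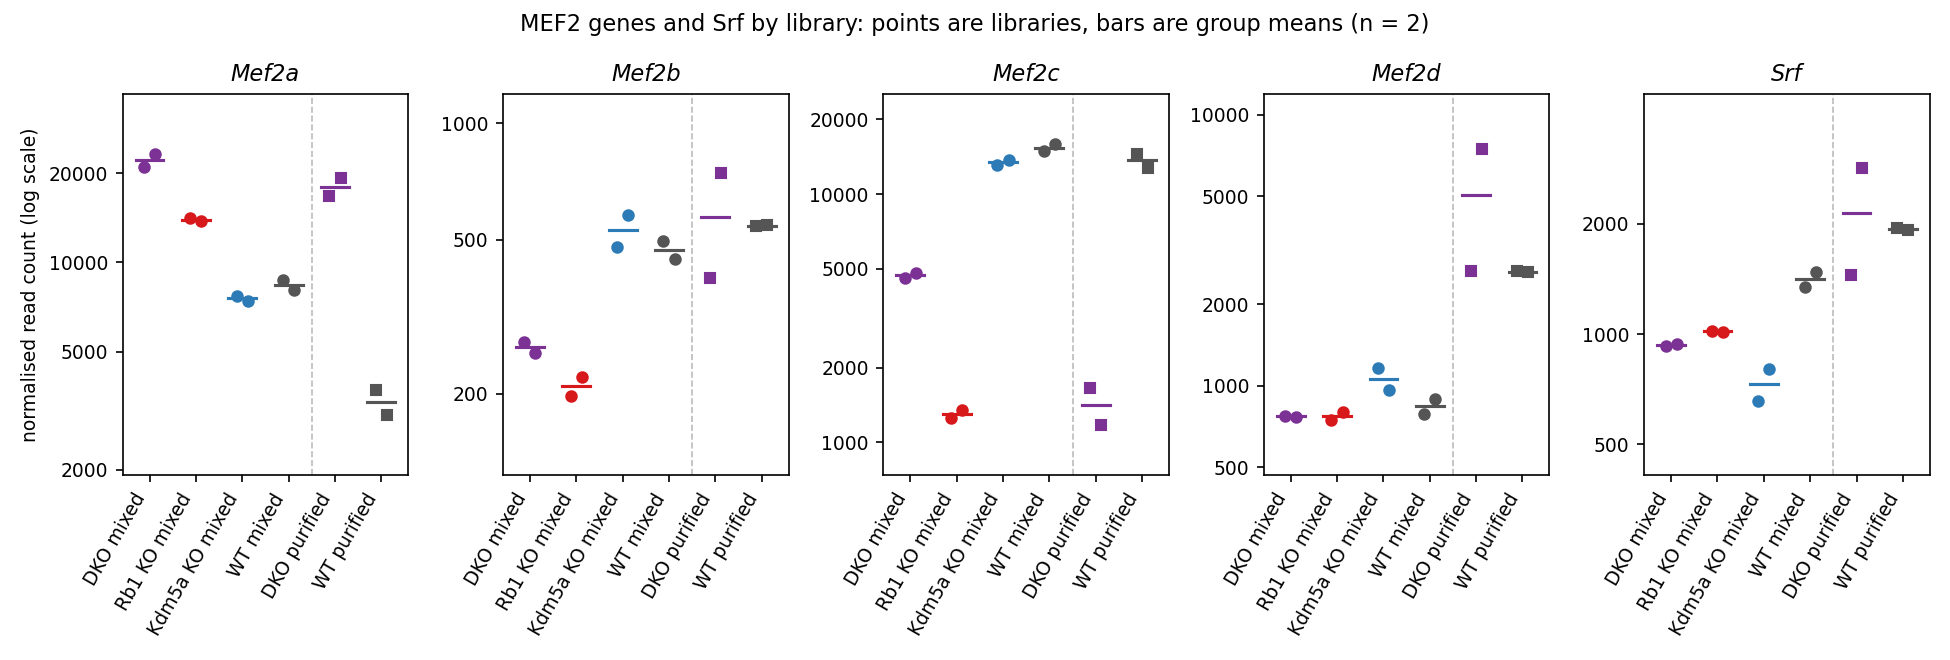
Normalised read count per library (log scale) of Mef2a, Mef2b, Mef2c, Mef2d and Srf, with circles for mixed cultures, squares for purified myotubes and bars for group means (n = 2). Mef2a is highest and Mef2c lowest in the groups labelled as lacking Rb1, and the 2 DKO purified libraries lie apart for Mef2b, Mef2d and Srf.

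Srf was the member that moved most in Kdm5a KO against WT. It had 930 and 941 normalised counts in DKO, 1024 and 1014 in Rb1 KO, 658 and 802 in Kdm5a KO and 1348 and 1483 in WT mixed cultures. WT was the highest group and Kdm5a KO the lowest, with no overlap between neighbours. Srf fell 1.94-fold in Kdm5a KO against WT (log2 change -0.96 ± 0.10, limma adjusted p = 1.87e-05), and 4.99% of genes fell as far. It also fell in Rb1 KO (log2 change -0.47 ± 0.10, limma adjusted p = 0.000672) and in DKO (log2 change -0.60 ± 0.10, limma adjusted p = 0.000117) against WT. DKO was above Kdm5a KO (log2 change 0.36 ± 0.10, limma adjusted p = 0.00461), but not past the threshold without Kdm5a KO replicate 1 (0.22, limma adjusted p = 0.0650, with 0.000942 to 0.0650 over its alternatives). Purified DKO myotubes had 1451 and 2839 normalised counts, on either side of the 1952 and 1924 of WT myotubes (log2 change 0.07 ± 0.35, limma adjusted p = 0.890). Without DKO purified replicate 2 this change was -0.42 (limma adjusted p = 0.00719) and without DKO purified replicate 1 it was 0.55 (limma adjusted p = 0.00283), the range over its alternatives being 0.00283 to 0.960.

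Read by comparison, Kdm5a KO against WT called 3 of the 5 genes, of which Mef2d rose and Mef2c and Srf fell, when 27.2% of all genes passed. Rb1 KO against WT called 4, of which Mef2a rose and Mef2b, Mef2c and Srf fell, when 71.1% of all genes passed. DKO against WT called the same 4 in the same directions, with the same WT libraries, and 67.9% of all genes passed. DKO against Rb1 KO called 2, Mef2a and Mef2c, both higher in DKO, when 47.3% of all genes passed. DKO against Kdm5a KO called all 5, when 67.2% of all genes passed, 33.7% higher and 33.4% lower in DKO. There Mef2a (log2 change 1.54 ± 0.06, limma adjusted p = 1.88e-10) and Srf were higher in DKO. Mef2b (-0.99 ± 0.13, limma adjusted p = 2.54e-05), Mef2c (-1.51 ± 0.06, limma adjusted p = 2.39e-10) and Mef2d (-0.45 ± 0.10, limma adjusted p = 0.00163) were lower. Purified DKO against WT myotubes called 2, Mef2a and Mef2c, when 39.6% of 16670 genes passed. The DKO effect differed between purified and mixed libraries for 2, above 0 for Mef2a and below 0 for Mef2c, when 24.8% of 17273 genes passed, 11.6% above and 13.2% below. The shares of genes called in the comparisons of cultures labelled as lacking Rb1 were so high that a count of members there is no result about them, and the sizes carry the description.

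**Figure D2:**
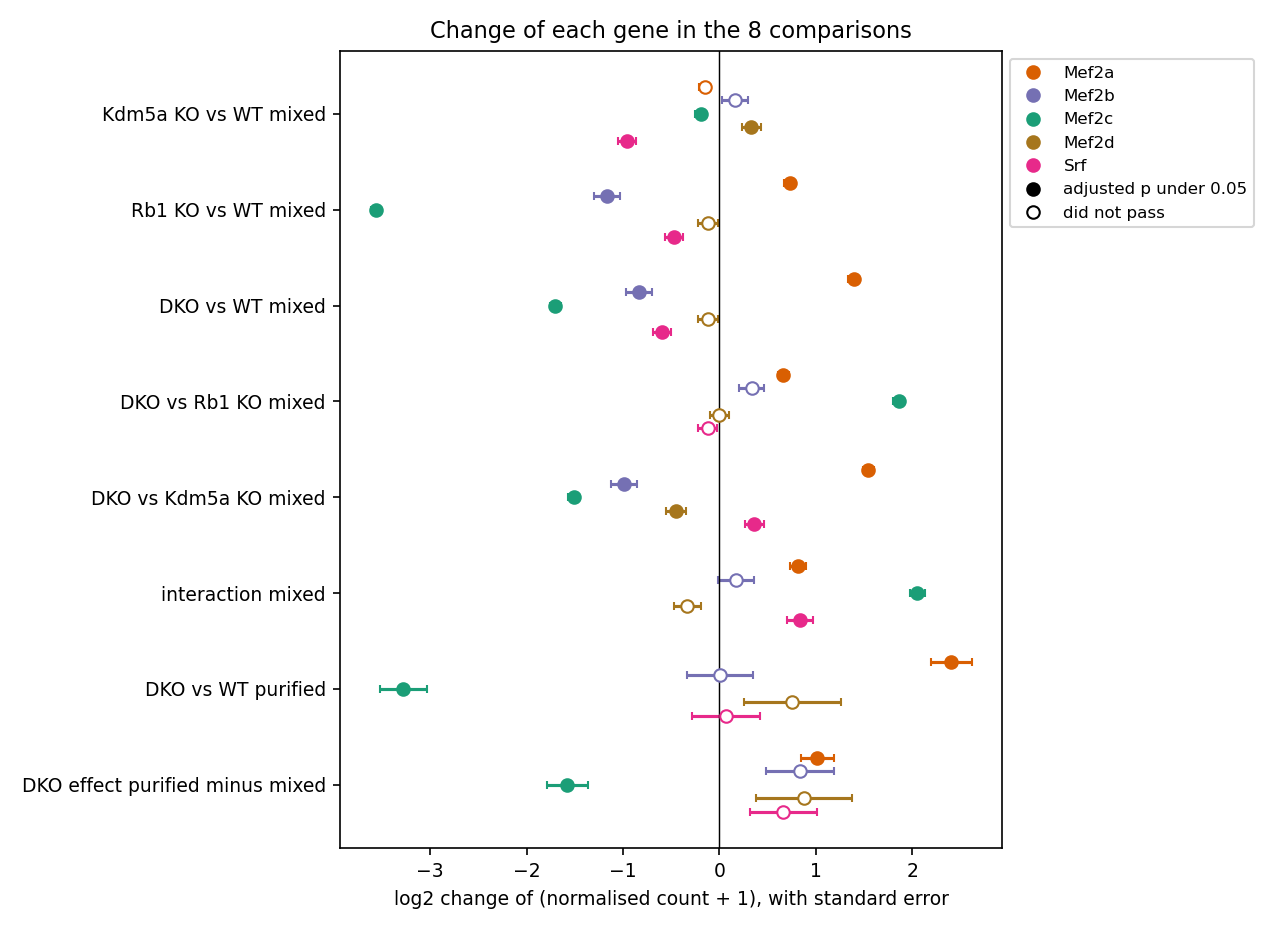
Log2 change of each gene with its standard error (limma, n = 2 per group) in the 8 comparisons, the interaction and the purified minus mixed DKO effect included; filled points passed an adjusted p of 0.05. Mef2c has the lowest changes, -3.56 in Rb1 KO against WT and -3.28 in purified DKO against WT myotubes, where Mef2a has 0.73 and 2.41.

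By the labels, the difference that went with Kdm5a loss depended on the Rb1 genotype for 3 of the 5 genes, when 38.3% of all genes passed the same test, 18.8% above 0 and 19.5% below. The interaction, which is DKO against Rb1 KO minus Kdm5a KO against WT, was 2.05 ± 0.08 on the log2 scale for Mef2c (limma adjusted p = 2.60e-09). It was 0.82 ± 0.08 for Mef2a (limma adjusted p = 6.49e-06) and 0.84 ± 0.14 for Srf (limma adjusted p = 0.000385). Mef2c and Mef2a were thus higher in DKO than in Rb1 KO, and slightly lower or not past the threshold in Kdm5a KO against WT. For Srf the interaction came with a difference of -0.12 ± 0.10 (limma adjusted p = 0.320) in DKO against Rb1 KO and a change of -0.96 in Kdm5a KO against WT. For Mef2b (0.17 ± 0.19, limma adjusted p = 0.512) and Mef2d (-0.33 ± 0.14, limma adjusted p = 0.0880) the interaction did not pass. The sexes of the 4 groups are confounded with Kdm5a on both sides of this test.

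The makeup of the MEF2 pool was described per length, as normalised counts per kilobase of exon, because the 4 genes differ in exonic length, from 1404 bases for Mef2b to 15715 for Mef2c. Mef2a made up 70.9% ± 1.40 of the summed MEF2 level in DKO, 72.5% ± 1.65 in Rb1 KO, 26.8% ± 1.24 in Kdm5a KO and 28.3% ± 1.53 in WT mixed cultures (SD, n = 2). Mef2c made up 14.1% ± 0.222 in DKO, 6.31% ± 0.302 in Rb1 KO, 44.4% ± 0.406 in Kdm5a KO and 48.3% ± 2.18 in WT. The leading member was thus Mef2a in every library labelled as lacking Rb1 and Mef2c in every other library. The summed level was 2122 ± 104 in DKO, 1309.8 ± 4.43 in Rb1 KO, 1923 ± 40.6 in Kdm5a KO and 2027 ± 1.16 in WT cultures, lowest in Rb1 KO. In purified myotubes Mef2a held 57.7% and 41.3% of the pool in DKO, against 12.6% and 11.3% in WT. Mef2c held 5.37% and 2.37% there in DKO, against 46.1% and 44.0% in WT. Mef2d held 22.5% and 39.6% in DKO, against 22.0% and 23.7% in WT. With 2 libraries against 2 an exact permutation test cannot pass the threshold, so shares are given without one. The Mef2a to Mef2c ratio of normalised counts, whose differences between groups do not depend on length, was 4.57 and 4.80 in DKO, 11.3 and 10.2 in Rb1 KO, 0.587 and 0.542 in Kdm5a KO and 0.587 and 0.510 in WT cultures. It was 10.0 and 16.3 in DKO and 0.256 and 0.240 in WT purified myotubes. With the longest transcript as length the Mef2a share was 83.3% in Rb1 KO and 34.0% in WT, and with the coding length it was 85.4% in Rb1 KO and 32.7% in WT. The purified shares moved with the length too. With the longest transcript Mef2a held 74.1% and 61.9% in DKO, against 17.3% and 15.9% in WT, and Mef2d held 12.1% and 24.8% in DKO, against 12.6% and 13.97% in WT. With the coding length Mef2a held 77.5% and 66.8% in DKO, against 16.9% and 15.7% in WT, and Mef2d held 11.9% and 25.3% in DKO, against 11.7% and 13.03% in WT. Mef2a led in both DKO and Mef2c in both WT purified libraries with each of the 3 lengths.

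**Figure D3:**
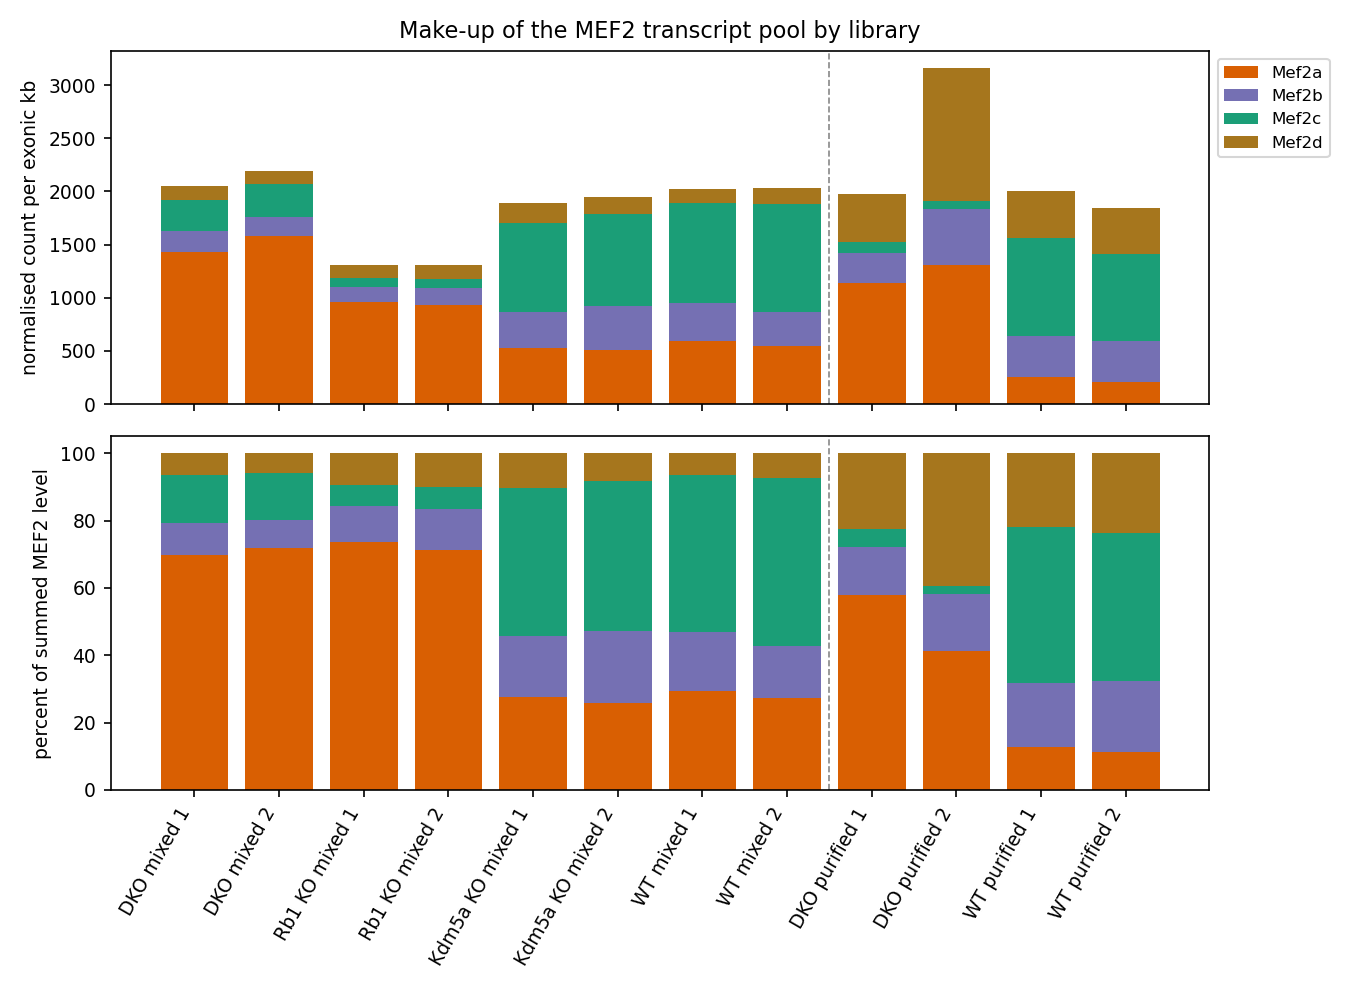
Normalised count per exonic kilobase (upper bars) and share of their sum in percent (lower bars) of Mef2a, Mef2b, Mef2c and Mef2d in each library. Mef2a leads in all 6 libraries labelled as lacking Rb1 and Mef2c in the other 6; the Mef2d share of the 2 DKO purified libraries is 22.5% and 39.6% with this length, and 12.1% and 24.8% with the longest transcript.

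Of 41 listed cofactors and regulators of MEF2 and SRF, 22 rose, 11 fell and 8 did not pass in Rb1 KO against WT cultures (median log2 change 0.26, against 0.03 over all genes), where 36.8% of all genes rose and 34.3% fell. Without the members that share exons with other genes, 12 of 26 rose, 9 fell and 5 did not pass (median 0.05). The genes with the smallest p that fell were the nuclear-envelope anchoring protein Akap6 (-2.27 ± 0.05), the muscle methyltransferase Smyd1 (-2.58 ± 0.07) and the calcium/calmodulin kinase gene Camk2a (-3.10 ± 0.09). Those that rose were the ternary complex factor Elk3 (1.80 ± 0.09), the class IIa histone deacetylase Hdac7 (2.58 ± 0.16) and the calcineurin and MEF2 inhibitor Cabin1 (1.22 ± 0.09), all 6 with limma adjusted p at or below 7.46e-08; Elk3 shares exons with Cdk17 and Hdac7 with Slc48a1. Among the other class IIa enzymes, named here after their values were seen, Hdac5 fell (-0.58 ± 0.12, limma adjusted p = 0.000631), Hdac9 rose (0.26 ± 0.08, limma adjusted p = 0.00855) and Hdac4 did not pass (0.17 ± 0.09, limma adjusted p = 0.0907). The SRF partners Mrtfa (1.32 ± 0.11, limma adjusted p = 1.60e-07) and Mrtfb (0.78 ± 0.10, limma adjusted p = 1.87e-05), chosen in the same way, rose, and Myocd (-0.36 ± 0.30, limma adjusted p = 0.286) did not pass. In DKO against Rb1 KO, where 23.1% of all genes rose and 24.2% fell, 9 of the 41 rose, 14 fell and 18 did not pass (median -0.15, against -0.01 over all genes). Without the members that share exons, 9 of 26 rose, 5 fell and 12 did not pass (median 0.01), so the sign of the median rests on the members that share exons. Akap6 (1.44 ± 0.05), Camk2a (2.35 ± 0.09), Smyd1 (1.51 ± 0.07), Camk2b (1.42 ± 0.10) and the MEF2-activating SAP-domain protein Mamstr (2.58 ± 0.19) rose and Camk2d (-0.64 ± 0.05) fell, all with limma adjusted p at or below 5.95e-07. Mamstr had 307 and 317 normalised counts in DKO, 49.96 and 52.5 in Rb1 KO, 120.3 and 94.5 in Kdm5a KO and 159 and 172 in WT mixed cultures, so that DKO stood above all other groups.

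In mixed cultures labelled as lacking Rb1, the genes listed as MEF2 targets mostly changed in the direction of Mef2c. That direction was opposite to that of Mef2a in Rb1 KO and DKO against WT, and the same as it in DKO against Rb1 KO. The list is mostly of muscle genes, but it also names Klf2, Klf4 and Dusp6. Jun and Nr4a1 are both in it and in the SRF immediate early list below. Of 33 measured genes, 29 fell and 1 rose, while 3 did not pass, in Rb1 KO against WT cultures, where 34.3% of all genes fell and 36.8% rose. The median log2 change was -2.30, against 0.03 over all genes. In DKO against Rb1 KO, where 23.1% of all genes rose and 24.2% fell, 28 rose, 1 fell and 4 did not pass (median 1.35, against -0.01). In DKO against WT, where 34.0% of all genes rose and 33.9% fell, 3 rose, 25 fell and 5 did not pass (median -1.07, against 0.00). The slow troponin I gene Tnni1 had 8376 and 7998 normalised counts in DKO, 2115 and 2052 in Rb1 KO, 25883 and 27648 in Kdm5a KO and 31655 and 30802 in WT mixed cultures. The thin-filament protein Lmod2 had 2048 and 1979 in DKO, 108 and 121 in Rb1 KO, 2741 and 3067 in Kdm5a KO and 4310 and 4254 in WT. Both followed the order of Mef2c over the 4 groups. In Rb1 KO against WT, Tnni1 (-3.91 ± 0.05), Lmod2 (-5.21 ± 0.08), the intermediate filament gene Des (-4.18 ± 0.05), the muscle kelch protein Klhl41 (-3.08 ± 0.06), the calcium store protein Casq2 (-3.20 ± 0.06) and the muscle cytochrome oxidase subunit Cox6a2 (-7.24 ± 0.17) had the smallest p (limma adjusted p at or below 1.98e-12). In DKO against Rb1 KO, Lmod2 (4.12 ± 0.08), Des (2.58 ± 0.05), Tnni1 (1.97 ± 0.05), Klhl41 (2.00 ± 0.06), the M-band protein Myom2 (1.85 ± 0.05) and Cox6a2 (5.42 ± 0.17) led (limma adjusted p at or below 1.03e-10). Des shares exons with Gm15179 and Cox6a2 with Itgad. In Kdm5a KO against WT, where 13.4% of all genes rose and 13.8% fell, 2 rose, 14 fell and 17 did not pass. In purified DKO against WT myotubes 6 rose, 11 fell and 16 did not pass (median -0.64, against -0.05), where 21.0% of all genes rose and 18.6% fell. The summed myotube markers moved with this list. They were 6.36-fold lower in Rb1 KO than in WT and 2.94-fold higher in DKO than in Rb1 KO, and their part in it was not tested. Myog, Ckm and Des belong both to this list and to the markers, so the marker sum is not independent of the list.

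The SRF cytoskeletal targets moved in both directions. Of 36 measured genes, 21 rose and 10 fell, while 5 did not pass, in Rb1 KO against WT cultures (median log2 change 0.43, against 0.03 over all genes), where 36.8% of all genes rose and 34.3% fell and Srf itself fell. In DKO against Rb1 KO, 5 rose, 28 fell and 3 did not pass (median -0.72, against -0.01), where 23.1% of all genes rose and 24.2% fell and the Srf difference did not pass. Without the members that share exons, 13 of 24 rose, 8 fell and 3 did not pass in Rb1 KO against WT (median 0.34), and 3 rose, 19 fell and 2 did not pass in DKO against Rb1 KO (median -1.09). The actin crosslinker Flna had 4882 and 5040 normalised counts in DKO, 25217 and 26868 in Rb1 KO, 1330 and 1369 in Kdm5a KO and 1954 and 1899 in WT. Rb1 KO was far above every other group (3.76 ± 0.05 against WT, and -2.39 ± 0.05 for DKO against Rb1 KO). The matricellular gene Ccn2 (3.17 ± 0.09 and -2.43 ± 0.09) and the calponin-related gene Tagln (1.89 ± 0.06 and -2.05 ± 0.06) moved likewise in the same 2 comparisons. The cardiac actin Actc1 (-4.26 ± 0.09) and the tropomyosin Tpm2 (-2.10 ± 0.05) fell in Rb1 KO, as did Des, and Tpm2 rose in DKO against Rb1 KO (1.28 ± 0.05), whereas the smooth muscle actin Acta2 fell (-1.03 ± 0.04). Adjusted p for these was at or below 7.68e-10 by limma; Ccn2 shares exons with Gm15270 and Tagln with Pcsk7 and Gm48529. All 10 fibroblast matrix markers rose in Rb1 KO against WT, and their summed level was 14119 and 14929 in DKO, 77243 and 94064 in Rb1 KO, 9072 and 8765 in Kdm5a KO and 10469 and 10984 in WT. In Kdm5a KO against WT 4 SRF cytoskeletal targets rose, 17 fell and 15 did not pass (median -0.37), where 13.4% of all genes rose and 13.8% fell. The fibroblast sum was slightly lower there, but 4 of the 10 fibroblast markers rose, 4 fell and 2 did not pass (median 0.03). The part of fibroblast RNA in these results was not tested.

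The SRF immediate early list of 16 measured genes, which holds Srf itself, had 9 that rose, 3 that fell and 4 that did not pass in Rb1 KO against WT cultures (median 0.85), where 36.8% of all genes rose and 34.3% fell. Without the members that share exons, 8 of 12 rose, 2 fell and 2 did not pass (median 1.37). The activity-regulated gene Arc (2.04 ± 0.18), the zinc finger factors Egr1 (1.85 ± 0.17) and Egr2 (2.14 ± 0.35), the nuclear receptor Nr4a1 (2.72 ± 0.36) and the AP-1 member Fosl1 (1.85 ± 0.33) rose, and the survival gene Mcl1 fell (-0.44 ± 0.06), with limma adjusted p at or below 0.000257; Fosl1 shares exons with Ccdc85b. In DKO against Rb1 KO, where 23.1% of all genes rose and 24.2% fell, 1 rose, 8 fell and 7 did not pass (median -0.49), and without the members that share exons 1 rose, 5 fell and 6 did not pass (median -0.49). Arc rose (0.76 ± 0.18), whereas Klf6 (-1.46 ± 0.10), Mcl1 (-0.44 ± 0.06), Ier2 (-2.35 ± 0.45), the MAP kinase phosphatase Dusp1 (-0.80 ± 0.16) and Ier3 (-1.26 ± 0.31) fell (limma adjusted p at or below 0.00506; Dusp1 shares exons with Ergic1). Arc had 639 and 693 normalised counts in DKO, 351 and 440 in Rb1 KO, 122 and 95.2 in Kdm5a KO and 107 and 84.2 in WT cultures, with the groups labelled as lacking Rb1 above the others. In DKO against WT cultures, where 34.0% of all genes rose and 33.9% fell, 5 rose, 6 fell and 5 did not pass (median 0.05), and without the members that share exons 5 rose, 5 fell and 2 did not pass (median 0.53).

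**Figure D4:**
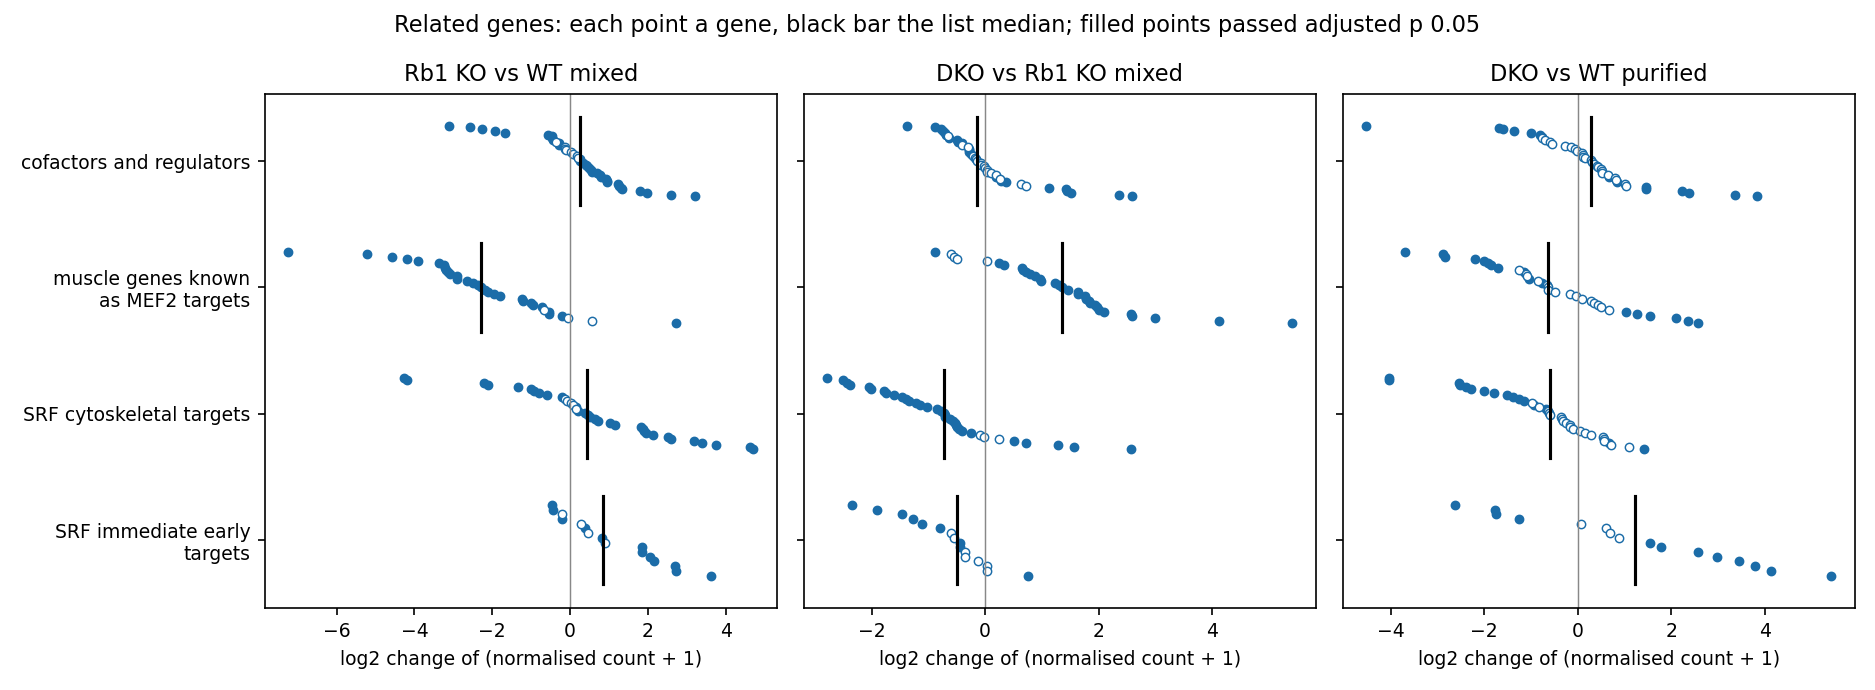
Log2 change of every measured gene of the 4 lists (cofactors and regulators, MEF2 muscle targets, SRF cytoskeletal targets, SRF immediate early targets) in Rb1 KO against WT and DKO against Rb1 KO mixed cultures and in DKO against WT purified myotubes, 1 point per gene, filled where it passed an adjusted p of 0.05, with the list median as a black bar. The MEF2 targets lie mostly below 0 in the first comparison (median -2.30) and above 0 in the second (median 1.35), and the SRF cytoskeletal targets lie on both sides in the first (median 0.43) and mostly below 0 in the second (median -0.72).

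Over the 8 mixed libraries, the genes whose log2 levels were most like each member by Pearson correlation, among 10713 genes, are given as a description, since the 8 libraries form 4 genotypes and share their size factors. For Mef2c they were the junctional protein Stac3 (r = 0.999), the membrane repair gene Trim72 (0.999) and Tnni1 (0.999), all muscle genes. For Mef2a they were Tbc1d31 (0.996), the Fanconi anaemia gene Fanca (0.996) and Cisd2 (0.995). For Mef2b they were Lactb (0.998), Mindy1 (0.995) and Ptgr2 (0.994), and for Srf they were Tspan7 (0.989), Rprm (0.982) and the IGF-binding protein Igfbp3 (0.976). The best matches of Mef2d were weaker, with Rpia (0.967), Lman2 (0.958) and the translation factor subunit Eif3e (0.953). Fanca, Trim72, Mindy1 and Ptgr2 share exons with other genes.

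MEF2 genes are also made by other cells, so their defining markers were summed. Of 8 endothelial markers, Tie1 was at 0 in all libraries but DKO purified replicate 2, and the sums were 1191 and 1135 in DKO, 444 and 484 in Rb1 KO, 483 and 405 in Kdm5a KO and 424 and 334 in WT mixed cultures. The 5 neuronal markers summed to 7576 and 8303 in DKO, 8009 and 8332 in Rb1 KO, 2103 and 1888 in Kdm5a KO and 2602 and 2144 in WT, with Snap25 at 0 in 1 library each of Rb1 KO and Kdm5a KO. The 5 cartilage markers summed to 1252 and 1508 in DKO, 1375 and 1481 in Rb1 KO, 411 and 353 in Kdm5a KO and 254 and 311 in WT, and in WT replicate 1 Col2a1 and Acan were at 0. The 7 smooth muscle markers, several of which are SRF targets, summed to 26413 and 26247 in DKO, 44046 and 44785 in Rb1 KO, 45863 and 45199 in Kdm5a KO and 62086 and 62937 in WT. Yet in Rb1 KO against WT, 4 of the 7 rose and 3 fell (median log2 change 1.89). They ran from -4.18 for Des, which is also a skeletal myotube marker, to 4.26 for Notch3. The 6 macrophage and blood markers summed to 325 and 311 in DKO, 285 and 239.9 in Rb1 KO, 538 and 509.7 in Kdm5a KO and 750.2 and 843 in WT. Most of them did not follow this sum. Of 5 tested in Rb1 KO against WT, 3 rose, 1 fell and 1 did not pass (median 1.80), from -5.11 for Itgam to 4.49 for Cd14. In DKO against WT 2 rose, 2 fell and 1 did not pass (median 1.77). In purified myotubes the neuronal sum was 3638 and 2848 in DKO, against 379.5 and 414 in WT (8.18-fold higher, with Snap25 at 0 in both WT libraries). The cartilage sum was 1747 and 2347 in DKO, against 393 and 403 in WT (5.15-fold higher, with Col10a1 at 0 in WT purified replicate 1). The fibroblast sum was 24494 and 33178 in DKO, against 15057 and 18558 in WT (1.72-fold higher). Of 8 fibroblast markers tested there, 4 rose, 2 fell and 2 did not pass, from -4.00 for Pdgfrb to 2.57 for Postn. Of the other types, endothelial markers summed to 1628 and 1828 in DKO, against 1000.9 and 921 in WT, and macrophage and blood markers to 667 and 1291 in DKO, against 2006 and 1873 in WT. Smooth muscle markers summed to 26501 and 44628 in DKO, against 121299.5 and 128713 in WT (3.51-fold lower). Of these 7 markers 3 rose, 2 fell and 2 did not pass there, from -2.52 for Acta2 to 3.67 for Notch3 (median 0.71). Neuronal and cartilage sums were thus high where Mef2a was high and Mef2c low, and their part in the members' levels was not tested. The neuronal markers did not all move with their sum. Of 3 tested in Rb1 KO against WT, Map2 rose (log2 change 1.86), Tubb3 fell (-1.26) and 1 did not pass. In DKO against WT 2 rose and 1 did not pass. In purified DKO against WT 1 rose and 2 did not pass, from -0.41 for Tubb3 to 6.14 for Map2. Of 4 cartilage markers tested, 3 rose in Rb1 KO against WT and 2 in purified DKO against WT, and the others did not pass.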

How the data were processed

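The deposited table gives a signal per gene and library that the authors made, as its values show, by dividing read counts by a size factor. The submitters' processing notes name TopHat 1.2.0, the mm9 build and DESeq; the read counter and annotation release are not given in the sources used here. Multiplied by 1 factor per library, 100% of the values fell within 0.01 of whole reads. Of the gene identifiers, 30983 (85.5%) matched a symbol; names, lengths and exon sharing came from GENCODE M21, and promoter sequences from RefSeq GRCm38.p6.

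Changes were tested with limma 3.58.1 on log2(value + 1), which understates changes of low genes, with an intensity trend, a mean of at least 10 and Benjamini-Hochberg adjustment over all genes (threshold 0.05, two-sided). A fit held the 8 mixed libraries, another the 4 purified ones, and the last all 12. Errors of log2 changes are standard errors. Alternatives covered the pseudocount, filter, scaling, trend, groups fitted, a replicate block, each library left out, sex-linked and exon-sharing genes, and edgeR 4.0.16 and DESeq2 1.42.0 on the recovered reads. The fits were tested on simulated data.

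The 5 genes and all gene lists were chosen with earlier results of these data known. From each list the 6 genes with the smallest p in Rb1 KO against WT and in DKO against Rb1 KO are named, and others are said to be chosen after their values were seen. Levels between genes are compared per exonic kilobase only. Replicates are 2 cultures per group, as the labels number them.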

Additional observations from a re-analysis of the deposited data

Results flagged for a closer look

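By the labels, the difference that went with Kdm5a loss depended on Rb1 status for Mef2c. The interaction was 2.05 ± 0.08 on the log2 scale (limma adjusted p = 2.60e-09, n = 2 per group). The same test gave 0.82 ± 0.08 for Mef2a (limma adjusted p = 6.49e-06) and 0.84 ± 0.14 for Srf (limma adjusted p = 0.000385). With each library left out in turn these stayed between 2.00 and 2.11 for Mef2c, 0.75 and 0.89 for Mef2a and 0.69 and 0.98 for Srf. The Kdm5a KO and DKO cultures were female and the others male, and Kdm5a loss and sex cannot be told apart in this test.

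The DKO effect against WT differed between purified myotubes and mixed cultures for Mef2c, by -1.58 ± 0.21 (limma adjusted p = 0.000657), and for Mef2a, by 1.01 ± 0.17 (limma adjusted p = 0.00238). With each library left out in turn these lay between -1.83 and -1.33 for Mef2c and between 0.87 and 1.15 for Mef2a. Purification came with another RNA selection, read length and recovery time, which cannot be told apart from it. The summed myotube markers were 2.64-fold lower in DKO than in WT among purified myotubes and 2.16-fold lower in mixed cultures.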

How the results depend on the processing

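The calls of Mef2a, Mef2b and Mef2c in mixed cultures labelled as lacking Rb1 against WT kept their direction and stayed past the threshold under every alternative that tested them. So did the interactions of Mef2a, Mef2c and Srf. The number of the 5 genes called in Kdm5a KO against WT was 1 without the intensity trend and 1 to 3 with 1 library left out. Leaving out exon-sharing genes removes Mef2a, Mef2b and Mef2d by construction, and left 2 called in Rb1 KO against WT, 2 in DKO against WT, 1 in DKO against Rb1 KO, 2 in DKO against Kdm5a KO, 1 in purified DKO against WT and 1 in the purified minus mixed effect. With 1 library left out, 2 to 5 were called in purified DKO against WT and 2 to 5 in the purified minus mixed effect; the highest counts came without DKO purified replicate 1. Mef2b there was -0.0029 without X and Y genes, -0.45 (limma adjusted p = 0.0205) without DKO purified replicate 2 and 0.46 (0.0136) without DKO purified replicate 1, with 0.0136 to 0.998 over its alternatives. Srf was -0.42 without DKO purified replicate 2 and 0.55 without DKO purified replicate 1. Mef2d in DKO against Rb1 KO ranged from -0.048 without Rb1 KO replicate 1 to 0.049 without Rb1 KO replicate 2, and was -0.0047 without DKO replicate 1. The interaction of Mef2d passed without WT replicate 2 (-0.42, limma adjusted p = 0.0432) and without Kdm5a KO replicate 2 (-0.47, 0.0274), with 0.0274 to 0.322 over its alternatives. The cause of these changes was not tested.

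All genes called in Kdm5a KO against WT were 4685, and 3021 without the trend, 3015 without exon-sharing genes and 3057 without Kdm5a KO replicate 1. In purified DKO against WT they were 6598, and 1983 to 11574 with 1 library left out; in the purified minus mixed effect they were 4292, and 2471 to 8989. Without exon-sharing genes the other comparisons called 7914 of 12237 (Rb1 KO against WT), 7494 of 11681 (DKO against WT), 5228 of 8128 (DKO against Rb1 KO), 7413 of 11551 (DKO against Kdm5a KO), 4194 of 6591 (interaction), 4358 of 6598 (purified) and 2783 of 4292 (purified minus mixed), with fewer genes tested.

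Replicate numbers were shared by the groups, but the replicate differences of 2 groups correlated at only -0.08 to 0.15 over genes, so the numbers were not taken to pair the cultures. A replicate block called 4629 genes in Kdm5a KO against WT and 12196 in Rb1 KO against WT, and it changed no call of the 5 genes.

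With 2 libraries per group, only the purified differences of Mef2a and Mef2c exceeded the spread between the 2 DKO purified libraries, and smaller changes of the other members were not detectable there.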

Other observations

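Purified DKO myotubes held much more RNA of several SRF immediate early genes than purified WT myotubes. Of the 16 genes tested, 8 rose and 4 fell, while 4 did not pass (median log2 change 1.22, against -0.05 over all genes), where 21.0% of all genes rose and 18.6% fell. Without the members that share exons with other genes, 5 of 12 rose, 3 fell and 4 did not pass (median 0.79). Srf itself did not pass. Arc had 787 and 1507 normalised counts in DKO, against 78.1 and 75.8 in WT (log2 change 3.81 ± 0.36, limma adjusted p = 0.00231). Egr3, another Egr family zinc finger gene, had 61.8 and 189 in DKO, against 1.86 and 1.24 in WT (5.43 ± 0.67, limma adjusted p = 0.00441). The WT values of Egr3 are near the floor, so the size of its change depends on the 1 added before the log2. Fosb (3.45 ± 0.77, limma adjusted p = 0.0221) and Egr2 (2.99 ± 0.42, limma adjusted p = 0.00607) rose too, whereas Klf6 fell (-2.62 ± 0.20, limma adjusted p = 0.00159). These genes were chosen after their values were seen.

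Of the 40 cofactors and regulators of MEF2 and SRF tested in purified DKO against WT myotubes, 8 rose, 7 fell and 25 did not pass, where 39.6% of all genes passed. The 2 given here were chosen in the same way. Mamstr had 608 and 1636 normalised counts in DKO, against 112 and 82.0 in WT (3.37 ± 0.51, limma adjusted p = 0.00762). Vgll2, a vestigial-like cofactor of skeletal muscle, had 158 and 347 in DKO, against 5505 and 5277 in WT (-4.52 ± 0.40, limma adjusted p = 0.00203), the lowest change among the 40 cofactors and regulators tested there. Of the MEF2 target list, Ckm (2.36 ± 0.18, limma adjusted p = 0.00160; it shares exons with A930016O22Rik) and Ppargc1a (2.10 ± 0.43, limma adjusted p = 0.0168) rose in DKO myotubes, while Tnni1 (-2.01, limma adjusted p = 0.00529) and the glycolytic gene Pgam2 (-0.77 ± 0.18, limma adjusted p = 0.0277) fell. The glucose transporter gene Slc2a4 (-0.84 ± 0.26, limma adjusted p = 0.0536) and Cox6a2 (-1.08 ± 0.51, limma adjusted p = 0.1502) did not pass.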
